A study of Mus musculus with 66 samples.

Results

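The miR-199 and miR-214 family was followed in mouse plasma as 5 entries of the circulating miRNA table, out of 1826 entries without the spike-ins. Every entry whose name contains miR-199a, miR-199b or miR-214 was taken: mmu-miR-199a-3p joined with mmu-miR-199b-3p (written here miR-199a/b-3p), mmu-miR-199a-5p, mmu-miR-199b-5p, mmu-miR-214-3p and mmu-miR-214-5p. The prefix mmu, for mouse, is left out from here on. The first entry joins 2 mature names, so the 5 entries carry 6 names.

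Plasma was taken at necropsy by cardiac puncture from 13 male mice of the inbred C3H strain, 8 with hepatocellular carcinoma (HCC) and 5 without it (non-HCC). The labels place all 13 mice, non-HCC mice included, more than 12 months after radiation. The study's text does not say which of the non-HCC mice were irradiated, so the exposure of each mouse is not known. Per the study's methods the HCC group mixes tumors that followed irradiation with a larger number that arose spontaneously. The labels do not say which mouse had which. A second table holds 53 columns from F2 mice, the second-generation progeny of BALB/c females and C3H males, which were irradiated and all developed HCC. These 15 F2 mice of both sexes were bled from the tail vein at 1, 6, 12 or 18 months after irradiation. The F2 column names match no sample label, so that mouse and month are unknown for each column and the F2 values are described without tests.

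miR-199 and miR-214 are known as miRNAs of mesenchymal cells. In the liver they are associated with hepatic stellate cells, the pericytes that turn into matrix-producing myofibroblasts when the liver scars, and miR-214 is known to repress the fibrogenic factor CCN2. miR-199a/b-3p is also known as an abundant miRNA of normal liver that is often low in HCC tissue. Plasma holds RNA from many tissues, so the name "stellate cell" for this family was not tested by these measurements: no cell was isolated and no stellate cell mRNA was measured. More cells that release a miRNA and more of it released per cell cannot be told apart in plasma.

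Sequences are given first because the arms and genes of the family decide which molecules an entry can count. RefSeq, on GRCm38.p6, held 5 of the 6 mature names. The mature sequences are printed 5′ to 3′, with the seed, bases 2 to 8, in capitals. miR-199b-5p is named only.
miR-199a-3p: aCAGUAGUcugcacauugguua
miR-199b-3p: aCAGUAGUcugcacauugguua
miR-199a-5p: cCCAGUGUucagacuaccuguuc
miR-214-3p: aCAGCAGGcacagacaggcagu
miR-214-5p: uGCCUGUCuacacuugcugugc

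miR-199a-3p and miR-199b-3p have the same 22 bases, and the table holds them as 1 entry. The 4 distinct sequences above have 4 different seeds. miR-199b-5p could not be compared in this way, since RefSeq did not hold its mature sequence. Its hairpin Mir199b, printed below, also holds the bases of the miR-199a-5p seed, outside the marked arm. Among the other mature mouse miRNAs that RefSeq held, the seed of miR-214-3p also occurs in miR-761. The seeds of the other sequences printed above occur in none of them. miR-761 was scarce, listed at 0 in 2 of 8 HCC and 2 of 5 non-HCC mice with at most 22 UMIs in any mouse, and it did not pass the test between the groups (log2 change 1.25 ± 1.47, SE, edgeR adjusted p = 0.757).

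The hairpins show how 4 genes feed 5 entries. They are printed with the mature arms of the RefSeq table in capitals.
Mir199a-2: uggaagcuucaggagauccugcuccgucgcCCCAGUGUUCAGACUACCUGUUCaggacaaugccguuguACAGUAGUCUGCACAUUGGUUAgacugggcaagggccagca
Mir214: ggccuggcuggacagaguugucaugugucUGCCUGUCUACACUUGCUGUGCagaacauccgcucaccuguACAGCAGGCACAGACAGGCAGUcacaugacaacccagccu
Mir199a-1: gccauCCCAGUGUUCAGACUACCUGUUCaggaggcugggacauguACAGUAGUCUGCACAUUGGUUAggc
Mir199b: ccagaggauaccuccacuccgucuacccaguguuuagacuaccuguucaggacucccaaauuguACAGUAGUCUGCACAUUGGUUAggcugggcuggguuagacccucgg

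Mir199a-2 lies at chr1:162217814-162217923 and Mir214 at chr1:162223368-162223477 of GRCm38, both on the plus strand. Between these 2 hairpins there are 5444 bases, and both fall within an exon of the unspliced transcript of the noncoding gene Dnm3os, which is 7928 bases long on the same strand. On the other strand both hairpins lie opposite an intron of Dnm3, a dynamin gene. Mir199a-1 lies at chr9:21496495-21496564 on the minus strand, in an intron of Dnm2 on the opposite strand. Mir199b lies at chr2:32318460-32318569 on the plus strand, in an intron of Dnm1 on the opposite strand. Counts of miR-199a/b-3p can therefore come from 3 hairpins, counts of miR-199a-5p from 2, and counts of each miR-214 arm from 1.

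Libraries carried molecular barcodes, and each value is a count of unique molecular indices (UMIs), so that amplified copies count once. Total miRNA UMIs ran from 9513136 to 14247488 in the HCC libraries and from 10467560 to 13962539 in the others. The lowest value above 0 in the table is 10, so that an entry of 0 stands for fewer than 10 UMIs. A level here means log2 of an entry's UMIs, plus 1, after division by the mouse's mean UMIs of 2 synthetic spike-ins (UniSP2 and UniSP4) set relative to all 13 mice. This spike-in scale keeps differences in total plasma miRNA, whereas TMM scaling, which is computed from the miRNA counts, removes most of them. The HCC libraries held 3 pairs that resembled each other more than any pair of non-HCC libraries did: HCC mice 1 and 6, 2 and 5, and 3 and 7. The chi-square over its degrees of freedom was 44.9, 81.7 and 97.8 for these pairs, 1349 for the next HCC pair and 147 for the closest non-HCC pair. Values near 1 would mean sampling noise alone, but these values cannot decide whether the libraries of a pair came from different animals. The labels give each library its own mouse number, so each was kept as its own mouse. Results are also given with the pairs joined.

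The 5 entries were far apart in abundance. miR-199a/b-3p ranked 52 of 1826 entries by mean share of the miRNA UMIs, miR-199a-5p 186, miR-214-3p 220, miR-199b-5p 356 and miR-214-5p 653. miR-199a/b-3p made up 94.5% of the family's UMIs in the HCC group and 93.9% in the non-HCC group. The family's plasma signal was thus nearly all miR-199a/b-3p, while miR-199b-5p gave 0.402% of it in HCC and 0.675% in non-HCC mice and miR-214-5p 0.122% and 0.137%. UMIs count molecules, but capture into a library can differ between sequences, and this was not tested.

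For miR-199a/b-3p, UMI counts in HCC mice ran from 8717 to 44482 with a median of 24598.5. The non-HCC mice gave 15272, 25053, 11595, 38546 and 13094 UMIs. Its spike-in scaled log2 level averaged 14.56 ± 1.79 (SD, n = 8) with the tumor and 13.89 ± 0.73 (SD, n = 5) without it. HCC mice lay on both sides of the non-HCC range: 4 were above all non-HCC mice, 2 (mice 3 and 7) below all of them and 2 within.

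For miR-199a-5p, a strand of Mir199a-1 and Mir199a-2, HCC mice had between 198 and 1704 UMIs with a median of 586.5. The non-HCC mice had 640, 1198, 513, 1134 and 528 UMIs. On the log2 scale it averaged 9.47 ± 2.01 (SD, n = 8) with the tumor and 9.25 ± 0.57 (SD, n = 5) without it. The same split was seen, with 4 HCC mice over the highest non-HCC mouse and 3 under the lowest.

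miR-199b-5p, the strand that only Mir199b gives, was the most unevenly spread. Its UMI counts in HCC mice 1 to 8 were 20, 206, 23, 252, 233, 24, 43 and 34. In non-HCC mice 1 to 5 they were 129, 220, 94, 237 and 65. HCC mice 2, 4 and 5 therefore had counts like the highest non-HCC mice, the other 5 were below the lowest non-HCC mouse, and no HCC mouse lay between 43 and 206. On the spike-in scale the 3 high HCC mice stood above and the 5 low ones below all non-HCC mice, and no HCC mouse fell within the non-HCC range. The study's methods count 5 spontaneous and 3 radiation-induced tumors, but which mouse had which is unknown. Whether tumor origin goes with this spread was not tested.

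miR-214-3p, the main strand of Mir214, gave 174 to 916 UMIs in HCC mice with a median of 487. The non-HCC mice gave 270, 345, 319, 745 and 187 UMIs. The mean log2 level was 9.00 ± 1.51 (SD, n = 8) with the tumor and 8.09 ± 0.66 (SD, n = 5) without it. On this spike-in scale 4 HCC mice were again above all non-HCC mice and 2 below. With TMM factors 1 was above and 0 below. The TMM counts above and below were 2 and 2 for miR-199a/b-3p and 3 and 3 for miR-199a-5p. They were 2 and 5 for miR-199b-5p and 0 and 1 for miR-214-5p.

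miR-214-5p, the minor strand, was near the lower limit of the table. Its UMI counts in HCC mice 1 to 8 were 39, 42, 0, 49, 37, 33, 17 and 37. In non-HCC mice 1 to 5 they were 29, 25, 31, 54 and 12. HCC mouse 3, listed at 0, was also the mouse with the fewest UMIs of miR-199a-5p and of miR-214-3p.

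**Figure D1:**
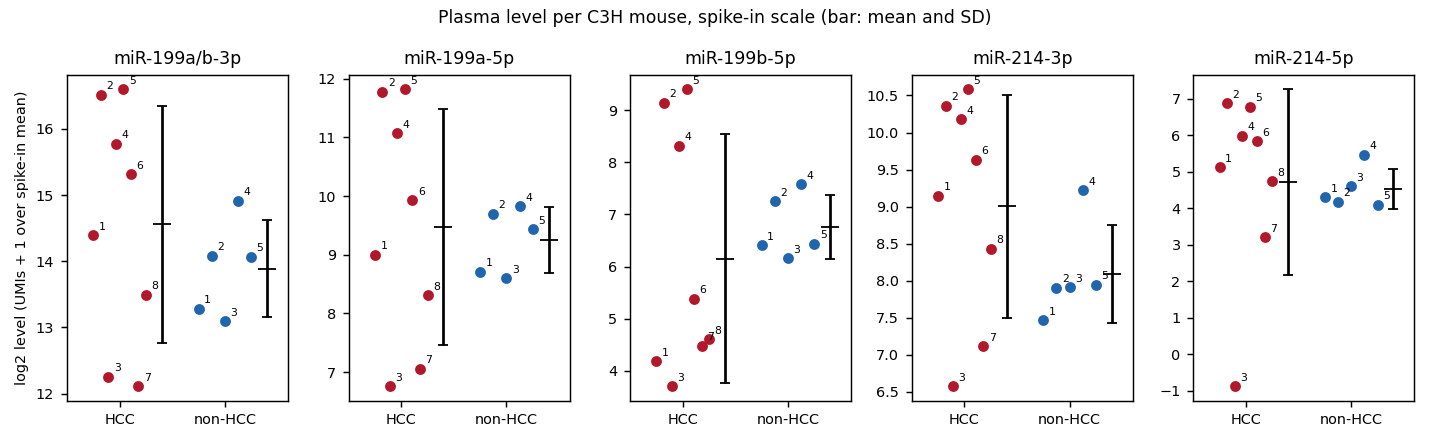
Log2 level of each entry in each C3H mouse, as UMIs plus 1 over the spike-in mean (vertical axis, 1 scale per panel), with mouse numbers beside the points and the group mean ± SD as a bar. HCC mice 2, 4 and 5 lie at the top and HCC mice 3 and 7 at the bottom in most panels, and the 5 non-HCC mice lie between them. The panels share each mouse's spike-in divisor.

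Setting the tumor-bearing mice against the tumor-free ones asks whether the family's plasma level differed with the tumor. No entry passed it. The test was edgeR's quasi-likelihood test over 1452 miRNAs with the spike-in mean as library scale and a Benjamini-Hochberg adjusted p under 0.05 as threshold. Of the 5 entries 0 were called, where 7.51% of all miRNAs tested were called, all of them higher in HCC mice. At an unadjusted p under 0.05, 0 of the 5 entries passed in that test, where 19.5% of all miRNAs did. limma called 0 of 5, where it called 3.03% of all miRNAs, and DESeq2 on the spike-in scale called 0 of 5, where it called 12.6%. For 0 of 5 entries did every HCC mouse lie above every non-HCC mouse, where this held for 1.52% of all miRNAs. The p-values measure the spread between these mice.

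On the spike-in scale miR-199a/b-3p had a log2 fold change of HCC over non-HCC of 1.30 ± 0.74 (SE, edgeR adjusted p = 0.363). miR-199a-5p had 1.13 ± 0.78 (SE, edgeR adjusted p = 0.508). miR-199b-5p had 0.83 ± 0.89 (SE, edgeR adjusted p = 0.724). The last is the only one of these 3 whose SE exceeds the change itself.

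For miR-214-3p the log2 change was 1.31 ± 0.68 (SE, edgeR adjusted p = 0.304), and for miR-214-5p it was 1.07 ± 0.82 (SE, edgeR adjusted p = 0.580). The median of the 5 was 1.13, beside a median of 0.78 over all 1452 miRNAs tested. Larger log2 fold changes than that of miR-199a/b-3p were found for 33.1% of the miRNAs tested, and larger ones than that of miR-199b-5p for 48.3%. The family thus stood in the upper part, but not at the top, of a table whose median fold change was itself above 0.

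The scale decided most of these sizes. With TMM factors the log2 fold change was 0.28 for miR-199a/b-3p, -0.0099 for miR-199a-5p, -0.51 for miR-199b-5p, 0.42 for miR-214-3p and 0.06 for miR-214-5p, and 0 of 5 were called, where 9.57% of all miRNAs were. The median of all miRNAs moved with the same change of scale from 0.78 to 0.17, and the median of the 5 entries from 1.13 to 0.06. Under TMM, then, miR-199a/b-3p and miR-214-3p lay above the median of all miRNAs and the other 3 entries below it. The direction of miR-199a-5p and miR-199b-5p turned between these 2 scales, and neither passed the threshold on either.

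**Figure D2:**
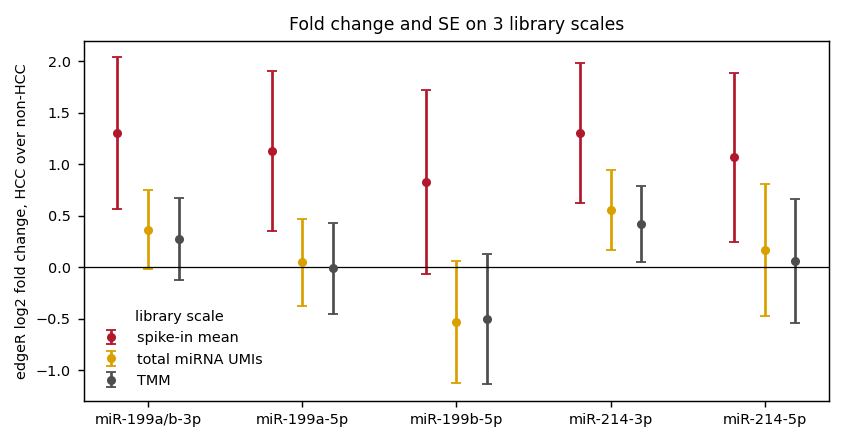
Log2 fold change of HCC over non-HCC from edgeR (vertical axis) for the 5 entries on 3 library scales, with standard errors as bars. All 5 values lie above 0 on the spike-in scale and closer to 0 or below it on the scales of total miRNA UMIs and TMM.

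Each spike-in level was then tested by exact permutation (two-sided, all 1287 ways to split the mice). The difference of mean log2 levels, HCC minus non-HCC, was 0.67 for miR-199a/b-3p (exact p = 0.441), 0.21 for miR-199a-5p (exact p = 0.828) and -0.61 for miR-199b-5p (exact p = 0.585). It was 0.91 for miR-214-3p (exact p = 0.223) and 0.18 for miR-214-5p (exact p = 0.911). None passed. These differences are smaller than edgeR's because a mean of logs weighs every mouse alike, whereas the fitted fold change follows the mean counts, to which HCC mice 2, 4 and 5 contributed most. For miR-214-5p the difference was 0.98 without HCC mouse 3, the mouse listed at 0, and it did not pass either (exact p = 0.145).

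Joining the 3 pairs of similar HCC libraries left the calls as they were. With the pairs summed, edgeR gave log2 fold changes of 1.23 for miR-199a/b-3p, 1.07 for miR-199a-5p, 0.77 for miR-199b-5p, 1.30 for miR-214-3p and 1.02 for miR-214-5p, and 0 of 5 were called, where 6.92% of all miRNAs were.

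As a share of all miRNA UMIs, which needs no spike-in, miR-199a/b-3p had a median of 2424 CPM (UMIs per 1000000 miRNA UMIs) with the tumor and 1400 without it. The share of miR-199a-5p was nearly the same in both, with medians of 58.8 and 58.7 CPM. For miR-199b-5p the medians were 3.61 in HCC and 11.8 in non-HCC mice, and for miR-214-3p they were 43.3 and 24.9. None of the 5 shares passed, with exact two-sided permutation p of 0.469 for miR-199a/b-3p, 0.764 for miR-199a-5p, 0.180 for miR-199b-5p, 0.207 for miR-214-3p and 0.922 for miR-214-5p. miR-122-5p, the main liver miRNA, is part of that total and rose in HCC mice (log2 fold change 7.34, edgeR adjusted p = 0.00303). With it left out of the total, the difference in the log2 share of miR-199a-5p moved from -0.15 to 0.23 and did not pass (exact permutation p = 0.675).

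Ratios between entries within a mouse need no library scale at all. Among 6 log2 ratios of UMIs plus 1, with p-values adjusted over the 6, 0 passed.

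The first set the 5p strand of miR-199a against the joined 3p entry. miR-199a-5p amounted to 2.38%, 3.74%, 2.22%, 3.83%, 3.64%, 2.39%, 2.99% and 2.76% of miR-199a/b-3p in HCC mice 1 to 8. In non-HCC mice 1 to 5 it was 4.19%, 4.78%, 4.42%, 2.94% and 4.03%. The log2 ratio was -5.09 ± 0.32 (SD, n = 8) with the tumor and -4.63 ± 0.27 (SD, n = 5) without it, which differ by -0.46 (exact permutation p = 0.0264, adjusted 0.112). All 8 HCC mice had a lower ratio than 4 of the 5 non-HCC mice. The exception was non-HCC mouse 4, and without it the difference was -0.57 and passed (adjusted exact p = 0.0364). With the 3 similar pairs averaged it was -0.43 and did not pass (adjusted exact p = 0.124).

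The ratio of miR-199b-5p to miR-199a/b-3p was lower in HCC mice by more but with a wider spread. It ran from 0.0803% in HCC mouse 1 and 0.0988% in HCC mouse 6 to 0.678% in HCC mouse 5. Non-HCC mice lay between 0.496% and 0.878%. The log2 ratio was -8.40 ± 1.19 (SD, n = 8) with the tumor and -7.12 ± 0.35 (SD, n = 5) without it, which differ by -1.28 (exact permutation p = 0.0373, adjusted 0.112). On that scale, with 1 UMI added, HCC mice 1, 3, 6 and 8 were below all non-HCC mice. HCC mouse 7, at 0.493%, was just below the lowest non-HCC mouse at 0.496% in this percentage but just above it once the UMI was added.

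The paralogue ratio, miR-199a-5p over miR-199b-5p, compares the genes that give each 5p strand. It was 29.6 in HCC mouse 1, 24.2 in HCC mouse 6 and 13.4 in HCC mouse 8, and between 5.37 and 8.61 in the other 5 HCC mice. Non-HCC mice had ratios from 4.78 to 8.12. The difference on the log2 scale was 0.83 (exact permutation p = 0.0769, adjusted 0.115). HCC mice 1 and 6, which lie farthest out, are one of the pairs of similar libraries.

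Mir199a-2 and Mir214 share the Dnm3os transcript, but miR-199a-5p can also come from Mir199a-1. On the log2 scale miR-199a-5p over miR-214-3p was 0.46 ± 0.63 (SD, n = 8) with the tumor and 1.16 ± 0.51 (SD, n = 5) without it. These differ by -0.70 (exact permutation p = 0.0629, adjusted 0.115). miR-199a/b-3p over miR-214-3p was 5.55 ± 0.42 (SD, n = 8) and 5.80 ± 0.40 (SD, n = 5), which differ by -0.24 (exact permutation p = 0.306, adjusted 0.306). The strand ratio of Mir214, miR-214-3p over miR-214-5p, was 4.30 ± 1.29 (SD, n = 8) and 3.57 ± 0.30 (SD, n = 5), which differ by 0.73 (exact permutation p = 0.235, adjusted 0.283). That last value depends on HCC mouse 3, where the 5p strand is listed at 0. Without that mouse the difference was 0.28.

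**Figure D3:**
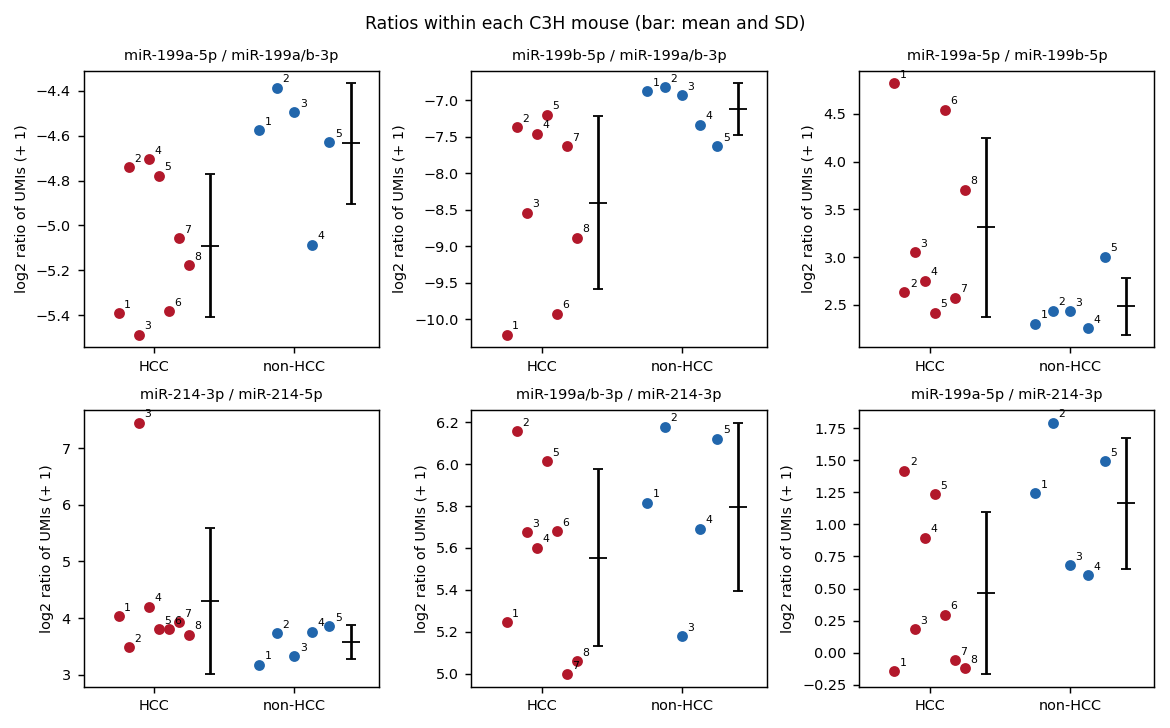
Log2 ratio of UMIs, each count plus 1, for 6 pairs of entries in each C3H mouse (vertical axis, 1 scale per panel), with mouse numbers beside the points and group mean ± SD as bars. In the panel of miR-199a-5p over miR-199a/b-3p all HCC mice lie below 4 of the 5 non-HCC mice, and in the panel of miR-199a-5p over miR-199b-5p HCC mice 1 and 6 stand above the others.

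Correlations between entries were taken over the 8 HCC mice. miR-199b-5p is left out of them, since its levels in HCC mice fell into separate clusters of 3 and 5 mice, too few for a relation within either. This choice was made after its values were seen. On the spike-in scale the 6 pairs of the other 4 entries had Pearson's r from 0.85 to 0.99 with a median of 0.95. All 6 passed after adjustment over the 6, by exact permutation of r and of Spearman's rho. How many of all miRNA pairs would pass was not counted. Over all pairs of the 1452 miRNAs tested, not matched for abundance, the median r on this scale was 0.46, and 11.2% of pairs reached the lowest r of the 6. Without the 2 mice farthest from the median, r lay between 0.96 and 0.99. All entries of a mouse share its spike-in divisor as a common term, and the permutation treats all 8 mice as independent, the 3 similar pairs included.

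On the TMM scale the median r of the 6 pairs was 0.84 and the range 0.68 to 0.97. By r 6 of 6 pairs passed, and by rho 2 of 6 did, while passes among all miRNA pairs were not counted here either. Over all pairs of miRNAs tested the median r on the TMM scale was 0.074, and 9.11% of pairs reached the lowest r of the 6. The highest was miR-199a/b-3p with miR-199a-5p, at r = 0.97 (adjusted exact permutation p = 0.000893) and rho = 0.95 (adjusted exact permutation p = 0.00685). Without the 2 farthest mice its r was 0.94. The strands of Mir214 had r = 0.85 (adjusted exact permutation p = 0.00546) and rho = 0.83 (adjusted exact permutation p = 0.0461), with r at 0.60 without the 2 farthest mice.

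Pairs of a miR-199 with a miR-214 entry follow, all on the TMM scale. miR-199a/b-3p with miR-214-3p had r = 0.86, and 0.50 without the 2 farthest mice. miR-214-5p had r = 0.68 with miR-199a/b-3p and 0.70 with miR-199a-5p. Without the 2 farthest mice these were 0.58 and 0.48. Neither pair passed by rho (adjusted exact permutation p = 0.0576 and 0.055). Both include HCC mouse 3, where miR-214-5p is listed at 0. miR-199a-5p with miR-214-3p had r = 0.82 (adjusted exact permutation p = 0.0129) and rho = 0.74 (adjusted exact permutation p = 0.055). Its r was 0.38 without the 2 farthest mice, HCC mice 3 and 7, so that the relation rests on those mice. HCC mice 3 and 7 are also a pair of similar libraries. With the 3 similar pairs averaged, 5 HCC values remained, over which no test was run. The r of the 6 pairs then lay between 0.92 and 0.99 on the spike-in scale and between 0.77 and 0.97 on the TMM scale.

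In the F2 table all 5 entries were found again. The 53 columns were shallower, with 205194 to 3020311 miRNA UMIs, and the plasma came from the tail vein, so levels are set side by side and not tested. miR-199a/b-3p was above 0 in all 53 columns, with a median of 5114 CPM and a range of 1696 to 12029. miR-199a-5p had a median of 87.2 CPM and was listed at 0 in 2 columns. miR-214-3p had a median of 51.3 and was listed at 0 in 1.

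miR-199b-5p had a median of 26.2 CPM in F2 and was listed at 0 in 3 columns. miR-214-5p was listed at 0 in 29 of 53 columns, where a column of this depth reaches the lower limit of 10 UMIs only at a higher share than a C3H library does. By mean share the entries followed the same order as in C3H, from place 28 of 1885 for miR-199a/b-3p to place 1380 for miR-214-5p, and miR-199a/b-3p made up 96.8% of the family's UMIs.

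**Figure D4:**
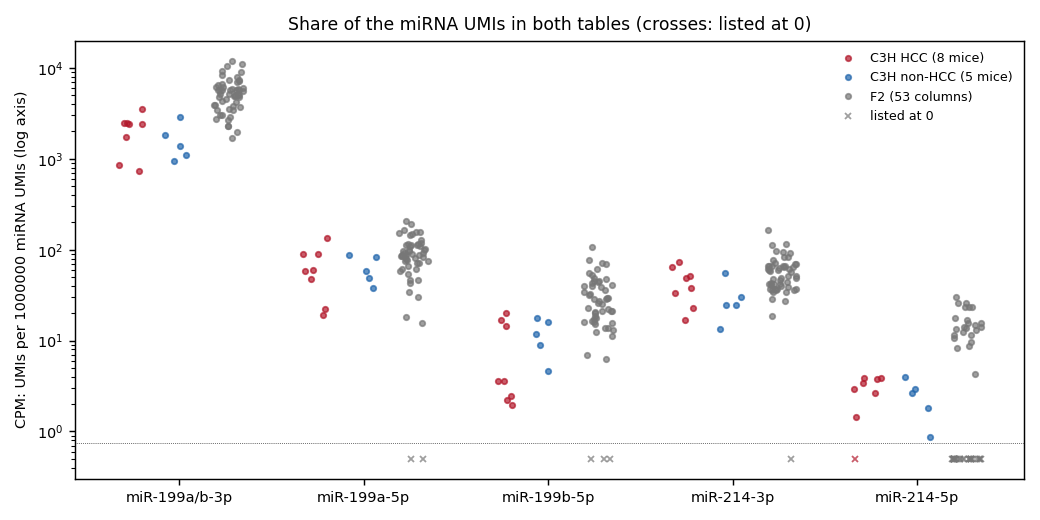
Share of all miRNA UMIs, as CPM on a log axis, for the 5 entries in 8 C3H HCC mice, 5 C3H non-HCC mice and 53 F2 columns, 1 point per library and crosses for values listed at 0. All points of miR-199a/b-3p lie between 737 and 12029, above those of the other entries, which reach 205 at most, and F2 columns hold most of the crosses for miR-214-5p.

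The balance within the family is set beside that of C3H without a test. The log2 ratio of miR-199a-5p to miR-199a/b-3p had a median of -5.76 over the 51 columns where both were above 0, and in 41 of these it was below every C3H mouse. The paralogue ratio, miR-199a-5p over miR-199b-5p, had a log2 median of 1.54 over 50 columns, and in 40 of these it was below every C3H mouse. Most F2 columns thus had less of the miR-199a 5p strand beside the 3p entry, and more of the miR-199b 5p strand beside that of miR-199a. Strain background, bleeding site, time of sampling and depth all differ between the tables and cannot be told apart.

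Over the 53 F2 columns all 5 entries were correlated, as 10 pairs and as a description. The columns come from 15 mice, so several share a mouse, and all entries of a column share its depth and spike-ins. On the spike-in scale r had a median of 0.47 over the 10 pairs, and on the TMM scale 0.31. miR-199a/b-3p with miR-199a-5p had r = 0.65 and rho = 0.81 on the TMM scale. For miR-199a-5p with miR-214-3p r was 0.08 and rho was 0.41. Dnm3os holds hairpins for both, but miR-199a-5p can also come from Mir199a-1. Columns with either entry listed at 0 were kept. For both strands of Mir214 r was -0.13, over columns in which the 5p strand is mostly at 0.

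**Figure D5:**
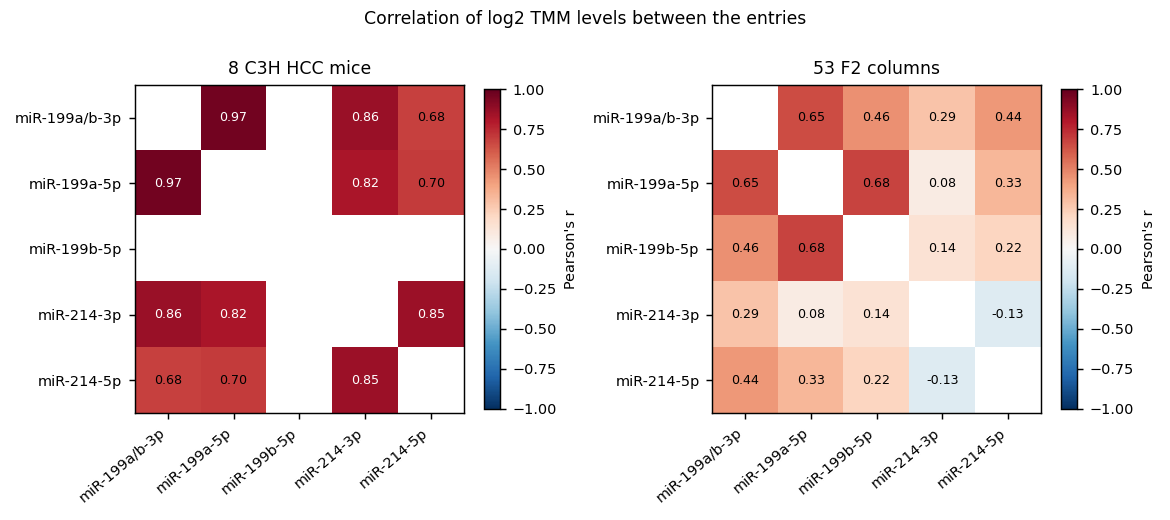
Pearson's r between the log2 TMM levels of the 5 entries over 8 C3H HCC mice (left, without miR-199b-5p) and over 53 F2 columns (right), with r written in each cell and a color scale from -1 to 1. miR-199a/b-3p with miR-199a-5p is the highest pair in C3H at 0.97, and pairs with either miR-214 strand reach at most 0.44 in F2.

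The miRNAs most like miR-199a/b-3p were ranked by the correlation of TMM levels, after removal of the group means, over the 13 C3H mice and 695 miRNAs. These 5 were miR-125b-2-3p (r = 0.93), miR-195a-3p (r = 0.90), miR-203-3p (r = 0.89), miR-365-3p (r = 0.88) and miR-30a-5p (r = 0.87). The family member miR-199a-5p, at r = 0.94, was above all of them. For miR-214-3p r was 0.84, with 12 miRNAs outside the family closer, and for miR-199b-5p it was 0.66, with 69 closer. Over the 53 F2 columns and 306 miRNAs the likest were miR-27b-3p (r = 0.86), miR-101a-3p (r = 0.83), miR-152-3p (r = 0.83), miR-126a-3p (r = 0.79) and miR-125a-5p (r = 0.79). Both rankings took only miRNAs with at least 10 UMIs in every library. In F2 no other family entry met this, and miR-199a-5p, with r = 0.65 there, was not ranked.

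Other miRNAs tied to stellate and mesenchymal cells were counted in the same edgeR test, which called 7.51% of all miRNAs, all higher in HCC mice. In a list of 10, both arms of miR-143, miR-145a, miR-21a, miR-221 and miR-222, 0 rose and 0 fell, with a median log2 fold change of 1.41. miR-145a-3p, a smooth muscle and fibroblast miRNA, had the largest value at 2.24 (adjusted p = 0.112 from edgeR), and miR-222-3p the smallest at 0.03 (adjusted p = 0.994 from edgeR). The list's summed log2 level lay between 17.64 and 21.29 in HCC mice and between 17.38 and 19.50 in non-HCC mice.

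The miR-29 list of 7 holds both arms of a family known to repress collagen genes. Of the 7 members 1 rose, where 7.51% of all miRNAs did. For miR-29c-3p the log2 change was 3.08 ± 0.80 (SE, edgeR adjusted p = 0.0202), and the list's median was 1.78. The call was lost when non-HCC mouse 1, 2, 3 or 4 was left out. With TMM scaling 2 of the 7 rose, where 7.37% of all miRNAs did.

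Markers of other cells and tissues that plasma can carry were counted in the same test. It called 7.51% of all miRNAs tested, all of them higher in HCC mice. Of 5 liver miRNAs 4 rose, with a median log2 fold change of 4.51. Of 6 red cell miRNAs 0 were called (median -0.54), and of 5 platelet and leukocyte miRNAs 0 were called on the spike-in scale (median -0.69), while 4 were lower in HCC mice with TMM factors, where 2.2% of all miRNAs were. Of 5 muscle miRNAs 0 were called (median 1.47). Every miRNA of the 6 lists was above 0 in all 13 mice except miR-29b-2-5p of the miR-29 list. Summed log2 levels ran from 17.85 to 23.79 in HCC and 16.09 to 17.54 in non-HCC mice for liver, from 19.38 to 22.95 and 21.40 to 22.71 for red cells, from 16.41 to 19.01 and 17.65 to 19.78 for platelets and leukocytes, and from 11.85 to 17.83 and 13.64 to 15.11 for muscle.

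Across the 53 F2 columns the TMM level of miR-199a/b-3p went most with the summed platelet and leukocyte list (r = 0.77). The value was 0.66 with the red cell list, 0.45 with the stellate and mesenchymal list, 0.36 with the liver list, 0.30 with the miR-29 list and 0.12 with the muscle list. miR-199a-5p had r = 0.07 with the stellate and mesenchymal list, 0.56 with the platelet and leukocyte list and 0.38 with the red cell list. miR-214-3p had r = 0.54, 0.41 and 0.20 with these 3 lists in the same order. These r values include the columns listed at 0, 2 for miR-199a-5p and 1 for miR-214-3p, and their weight was not tested. Each list was summed over UMIs, so that its most abundant members weigh most. In C3H HCC mice these were miR-21a-5p in the stellate and mesenchymal list (mean log2 level 19.07) and miR-16-5p in the red cell list (20.93). The platelet and leukocyte list holds miR-126a-3p, itself among the miRNAs most like miR-199a/b-3p in F2 (r = 0.79). The part of any of these cell types in the family's plasma level was not tested.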

How the data were processed

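Plasma small RNA was sequenced from 13 C3H mice and 53 F2 samples. The authors aligned reads to GRCm38, with FastQC and Bowtie2 named in the submitters' processing notes and miRBase in the methods, and deposited UMI counts per miRNA, not normalized, with UniSP2 and UniSP4. C3H columns were matched to mice by the labels, and F2 columns only to the group.

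The counts were tested with edgeR 4.0.16 in R 4.3.3 (quasi-likelihood, spike-in mean as library scale, at least 5 UMIs in at least 5 mice, Benjamini-Hochberg adjustment over 1452 miRNAs). The standard error is the log2 fold change over the square root of F. Levels, shares and ratios add 1 UMI and were compared by exact two-sided permutation in Python 3.11.15 (pandas 2.3.3, numpy 2.4.6). Scripts were tested on simulated data. limma 3.58.1, DESeq2 1.42.0, other scales, filters and pseudocounts, a replicate block and each mouse left out were alternatives. The joining of similar libraries was chosen after seeing the data. So was leaving miR-199b-5p out of the correlations over HCC mice. TMM factors came from miRNAs passing the same filter.

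The miRNAs named are the 5 entries, the 6 lists and the 5 likest miRNAs per table. Entries and lists were chosen with earlier results of these data known. Gene positions are from GENCODE M21 and sequences from RefSeq, both GRCm38. Between 9513136 and 14247488 UMIs per C3H library make the spread between mice, and not counting, the limit for entries well above 10 UMIs.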

Additional observations from a re-analysis of the deposited data

Results flagged for a closer look

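Each entry and ratio was searched for a mouse far from the rest of its group, by Dixon's 95% critical value for the gap to the next mouse over the group's range. In 22 groups searched 3 such values were found, where chance gives about 1 in 20.

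In non-HCC mouse 4 the log2 level of miR-214-3p was 9.22, above a next value of 7.95. In non-HCC mouse 5 the log2 ratio of miR-199a-5p to miR-199b-5p was 3.00, above a next value of 2.44. In HCC mouse 3 the log2 ratio of miR-214-3p to miR-214-5p was 7.45, above a next value of 4.20, with the 5p strand listed at 0, so that its size there depends on the 1 UMI added.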

How the results depend on the processing

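Of the 5 entries 0 were called in edgeR, limma or DESeq2 under any of the 24 alternatives run. The log2 fold changes of miR-199a/b-3p (0.28 to 1.64), miR-214-3p (0.42 to 1.72) and miR-214-5p (0.062 to 1.40) kept their direction under all 24. That of miR-199a-5p turned with TMM (-0.0099), and that of miR-199b-5p with TMM (-0.51), total UMIs (-0.53), limma (-0.61) and DESeq2's own size factors (-0.46). The cause was not tested.

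Single levels turned with TMM for miR-199a-5p (-0.25) and miR-214-5p (-0.28). Leaving out single mice, they ran from -0.12 to 0.60 for miR-199a-5p and from -0.13 to 0.98 for miR-214-5p. Log2 shares turned without miR-122-5p in the total for miR-199a-5p (0.23) and miR-214-5p (0.20), and with similar libraries averaged for miR-214-5p (0.021). With 1 mouse left out they ran from -0.33 to 0.070 and from -0.50 to 0.45. No single level or share passed under any alternative run. Of the 6 ratios 0 passed under each alternative except without non-HCC mouse 4, where 1 did, so that the count ran from 0 to 1. The median r of the 6 pairs in HCC mice, 0.95, was 0.84 with TMM.

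The count of all miRNAs called, 109, was 44 with limma, 222 with DESeq2's own size factors and 183 with DESeq2 on spike-ins. It ran from 44 to 157 with 1 mouse left out and moved by over 1.5 times without HCC mouse 2 (65) or non-HCC mouse 1 (44), 2 (47), 3 (47) or 4 (53). In the stellate and mesenchymal list, total UMIs called 1 miRNA and either DESeq2 fit 3, and leaving out 1 mouse gave 0 to 1. In the miR-29 list, TMM and UniSP4 alone called 2, total UMIs and either DESeq2 fit 3, limma 0, and leaving out 1 mouse gave 0 to 2. In the red cell list, total UMIs and DESeq2's own size factors called 1. In the platelet and leukocyte list, TMM, total UMIs and DESeq2's own size factors called 4, and UniSP4 alone and DESeq2 on spike-ins 1. In the muscle list, either DESeq2 fit and the sums of similar libraries called 1.

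The labels give both groups replicate numbers, but each number names different mice, and same-numbered mice did not deviate together (r from -0.13 to 0.071 over 5 numbers). With the replicate number as a block, 145 miRNAs were called in all, 0 of the 5 entries, 2 in the stellate and mesenchymal list and 4 in the miR-29 list.

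Depth limits miR-214-5p and, in F2, miR-199b-5p, whose counts lie near the lowest listed value of 10 UMIs.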
